A study of Mus musculus with 72 samples.

Results

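NRF2 target genes encode the antioxidant and detoxifying enzymes that a cell switches on under oxidative stress, and 10 genes of this pathway were followed here in mouse liver and lung after whole body irradiation (WBI). The set held the transcription factor gene Nfe2l2, which encodes NRF2, its inhibitor Keap1, and the target genes Gclc, Gclm, Slc7a11, Gsr, Txnrd1, Srxn1, Nqo1 and Hmox1. The genes were taken by name as known members of the pathway. They were represented by 13 of the 56605 distinct probes on the array, which together named 23787 genes. Female C57BL/6 J mice aged 6 to 8 weeks received 1, 2, 4, 8 or 12 Gy of X-rays to the whole body in 1 exposure, or were sham irradiated (0 Gy), with 3 mice per dose. Liver and lung were collected 48 h later, and each of the 36 samples (18 per tissue) was hybridised to a 1-colour Agilent mRNA array. Samples are named below by their number in the labels: 1, 11 and 21 at 0 Gy, 2, 12 and 22 at 1 Gy, 3, 13 and 23 at 2 Gy, 4, 14 and 24 at 4 Gy, 5, 15 and 25 at 8 Gy, and 6, 16 and 26 at 12 Gy. Nothing beyond the irradiation differed between the groups in the labels, and only females and a single time were studied.

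In unstressed cells KEAP1 binds NRF2 and hands it to a ubiquitin ligase, so that NRF2 is rapidly degraded. Oxidants and electrophiles modify cysteines of KEAP1, NRF2 then accumulates in the nucleus, pairs with small MAF proteins and binds antioxidant response elements near its target genes. Much of this control acts on the NRF2 protein, which an mRNA array does not measure. In liver the pathway serves the handling of drugs and bile acids, and in lung the defence against inhaled oxidants.

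The promoters were examined for the core of the antioxidant response element, TGACNNNGC, where N is any base, on both strands. RefSeq promoter windows (GRCm38.p6, 250 bases before to 50 after the transcription start) were at hand for 7 of the 10 genes, with 3 windows for Txnrd1, and not for Hmox1, Gclc and Gsr. The core was present in 4 of these 9 windows, each of a different gene, against 12.4% of all 32851 promoter windows. The stretches around it are shown because they hold the letters through which the pathway is known to act, in the 5′ to 3′ direction of each gene with the core or its reverse complement in capitals.
Nfe2l2, chr2:75704875-75704913, minus strand: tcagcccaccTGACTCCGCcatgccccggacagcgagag
Gclm, chr3:122245403-122245451, plus strand: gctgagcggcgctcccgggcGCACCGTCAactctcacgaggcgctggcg
Txnrd1, chr10:82859094-82859142, plus strand: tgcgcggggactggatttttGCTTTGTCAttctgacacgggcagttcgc
Srxn1, chr2:152105532-152105573, plus strand: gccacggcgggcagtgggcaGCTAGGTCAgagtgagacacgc
The core began 240 bases before the start in Nfe2l2, 134 before it in Gclm, 92 before it in 1 of the 3 Txnrd1 windows and 28 after it in Srxn1. Those letters were not found in the windows of Keap1, Slc7a11 and Nqo1. The Nqo1 window is printed whole because Nqo1 gave the largest change of the 10 genes.
Nqo1, chr8:107403156-107403455, minus strand: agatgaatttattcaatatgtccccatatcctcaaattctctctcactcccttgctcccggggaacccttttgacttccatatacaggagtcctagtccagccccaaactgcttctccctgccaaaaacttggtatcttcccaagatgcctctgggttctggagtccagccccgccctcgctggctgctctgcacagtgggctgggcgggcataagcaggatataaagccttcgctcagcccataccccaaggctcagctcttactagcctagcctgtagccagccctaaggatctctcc

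The tissues carried the markers of their labels. All 9 hepatocyte markers were higher in liver and all 9 lung epithelium markers higher in lung at 0 Gy. The summed level of the hepatocyte markers lay between 21.14 and 21.24 (log2) in the livers and varied between 9.91 and 16.19 among the lungs. It was highest in lung sample 24 at 4 Gy, followed by 13.77 in sample 3 at 2 Gy and 13.75 in sample 15 at 8 Gy. Without sample 24 no member call on the lung slope was lost. That sample enters the 8 and 12 Gy comparisons with 0 Gy only through the shared spread, so leaving it out could hardly change them. Without sample 15 the 8 Gy call of Nqo1 in lung held. The summed hepatocyte level ran from 11.88 to 12.92 in the 0 Gy lungs and from 11.65 to 13.12 in the 12 Gy lungs. Its part in the lung values was not tested. The irradiation check genes Cdkn1a and Phlda3, targets of p53, rose at every dose in liver, and Cdkn1a did so in lung, where it reached a log2 change of 3.64 at 12 Gy. The arrays lay on 5 slides. Slide 1 held the liver samples of 0 and 1 Gy with samples 3 and 13. Slide 2 held liver sample 23, the liver samples of 4 and 8 Gy and sample 6. Slide 3 held liver samples 16 and 26 with the lung samples of 0 and 1 Gy, slide 4 the lung samples of 2 and 4 Gy with samples 5 and 15, and slide 5 lung sample 25 with the 3 lung samples of 12 Gy. Slide 5 was scanned on another day than the others, and 54.1 to 54.8% of its spots were well above background, against 59.2 to 64.0% on the other lung arrays. On that slide the lung array of sample 16 at 12 Gy stood apart, with 1578 outlier spots set aside, where the other lung arrays had from 110 to 600. In lung no dose from 2 Gy upwards shared a slide with 0 Gy, so for these doses slide and dose cannot be told apart in the comparison with 0 Gy. In liver the 4, 8 and 12 Gy groups likewise shared no slide with 0 Gy, and a fit with slide as a term linked them to it only through the 2 Gy group on slides 1 and 2 and, for the samples on slide 3, through sample 6 on slide 2.

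Cell type markers moved with dose. In lung at 12 Gy all 8 B cell and all 8 T cell markers fell, with median log2 changes of -3.51 and -3.70, whereas none of 12 macrophage markers passed the test. In lung the summed level of the T cell markers lay between 13.05 and 15.08 (log2) at 0 Gy and between 10.46 and 11.06 at 12 Gy, and that of the B cell markers between 13.73 and 14.92 and between 10.28 and 10.48. In liver at 12 Gy 8 of 12 Kupffer cell and macrophage markers fell, with a median of -0.64, and the summed level ran from 15.93 to 16.06 at 0 Gy and from 15.36 to 15.37 at 12 Gy. Of the liver B cell markers 4 of 7 fell there (median -1.005), of the T cell markers 3 of 8 (-0.81) and of the endothelial markers 2 of 6 (-0.61), and all the T cell and endothelial markers were lower. The summed liver level of the B cell markers ran from 9.52 to 10.14 at 0 Gy and from 8.09 to 8.48 at 12 Gy, that of the T cell markers from 11.73 to 11.89 and from 11.20 to 11.40, and that of the endothelial markers from 12.10 to 12.27 and from 11.78 to 11.90. Hepatocyte markers in liver had a median change of -0.01 and lung epithelium markers in lung one of 0.00. The hepatocyte markers in lung had a median change of 1.17, and none of the 9 passed. Of the erythroid markers 4 of 5 fell in lung and 2 of 6 in liver. Their summed level in lung ran from 14.29 to 14.44 at 0 Gy and from 13.54 to 13.82 at 12 Gy. In liver it ran from 14.73 to 15.07 and from 15.03 to 15.25, so that the liver sum was not lower. Among the neutrophil markers 2 rose and 1 fell of 10 in lung, and 1 rose and 1 fell of 9 in liver. Their summed level ran from 14.64 to 14.75 at 0 Gy and from 14.81 to 15.53 at 12 Gy in lung. In liver it ran from 11.30 to 11.41 and from 11.43 to 12.02. In a bulk sample fewer cells of a type and less RNA per cell cannot be told apart, and the part of these shifts in the results below was not tested.

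In liver the changed members were Nqo1, a quinone reductase, Nfe2l2 and Hmox1, which rose, and Keap1, which fell along the dose. Hmox1 passed at 8 Gy alone, and that call was lost in 6 of 8 other settings. Of the 9 members tested (Slc7a11 was not well above background by its brightest probe on any liver array), none passed at 1 Gy, where 0.0417% of the 38362 tested probes passed in either direction. Nqo1 rose at 2 Gy, where 0.182% of probes rose. Nqo1 and Nfe2l2 rose at 4 Gy (1.59% of probes), Nqo1, Nfe2l2 and Hmox1 at 8 Gy (4.95%) and Nqo1 and Nfe2l2 at 12 Gy (2.91%). No member fell against 0 Gy at any dose. At 12 Gy 4.10% of probes fell, so that no fall among 9 members lies near that share. The shares that fell at 2, 4 and 8 Gy are not given. The median log2 change of the 9 members was 0.27, 0.18, 0.23, 0.30 and 0.17 from 1 to 12 Gy, and that of all tested probes lay between -0.003 and 0.010. At 12 Gy every value lay above every 0 Gy value for 4 of the 9 members (Nqo1, Nfe2l2, Gclc and Gsr), as it did for 14.8% of probes. The 5 comparisons share their 0 Gy samples and are therefore not independent. At an unadjusted p below 0.05, 3 members and 2716 probes passed at 1 Gy.

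In lung Nqo1, Nfe2l2 and Gsr rose at 12 Gy, Nqo1 already at 8 Gy, and Txnrd1 rose along the dose. Of the 10 members tested none passed at 1, 2 or 4 Gy, where 0.0250%, 0.555% and 2.18% of probes passed in either direction. At an unadjusted p below 0.05 the members passing at these doses numbered 1, 2 and 2, and the probes 2426, 3371 and 6122. At 8 Gy 1 member rose (1.68% of the 43979 tested probes), and at 12 Gy 3 did (13.5%). The median log2 change of the members was 0.10 at 1 Gy and 0.41 at 12 Gy, beside 0.01 and 0.09 over all tested probes. At 12 Gy the values of 4 members (Nqo1, Nfe2l2, Gsr and Srxn1) lay wholly above those at 0 Gy, as did those of 21.6% of probes. The lung comparisons share their 0 Gy samples too.

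**Figure D1:**
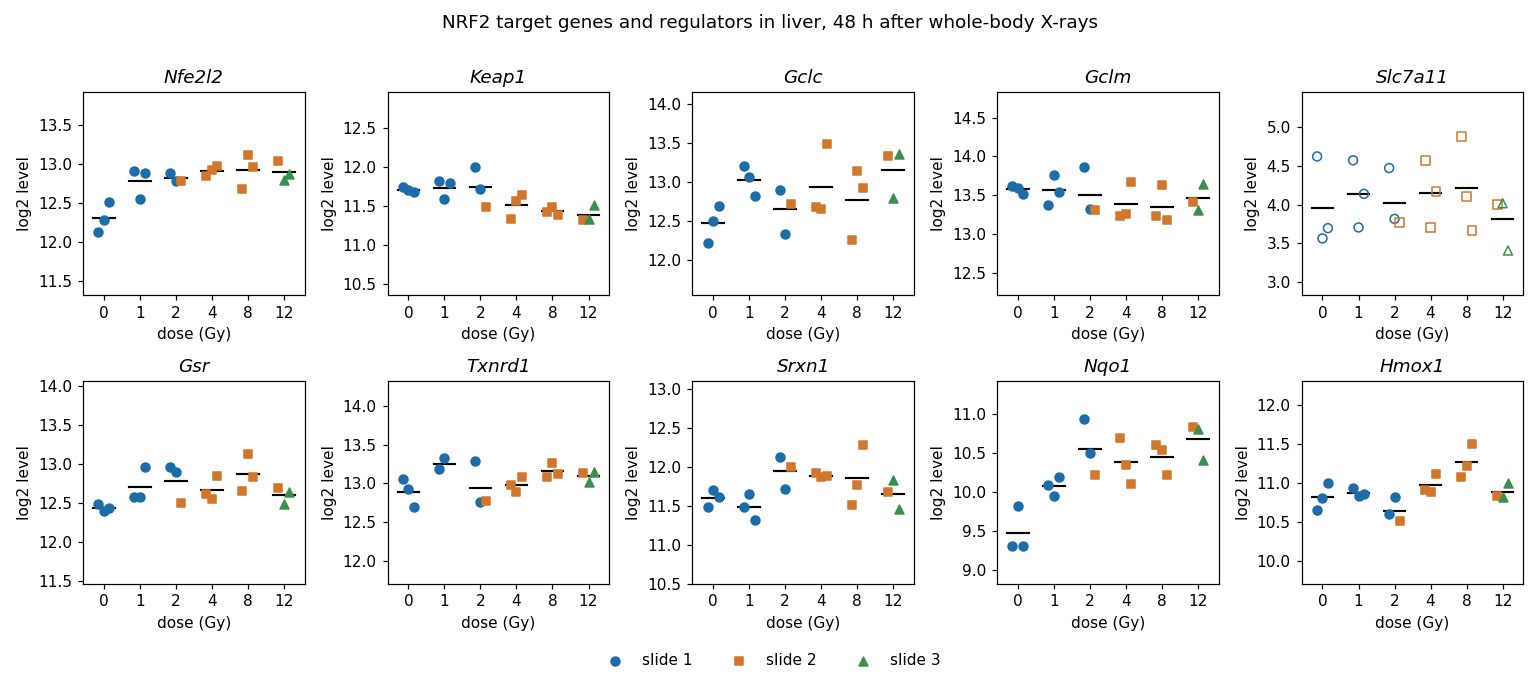
Levels of the 10 genes in liver, each panel 1 gene by its brightest probe, with dose in Gy on the x axis and the normalized log2 level on the y axis. Points are single samples, drawn by slide and hollow where the spot was not well above background, and bars are group means. Nqo1 lies between 9.30 and 9.82 at 0 Gy and between 9.95 and 10.94 in the irradiated samples.

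**Figure D2:**
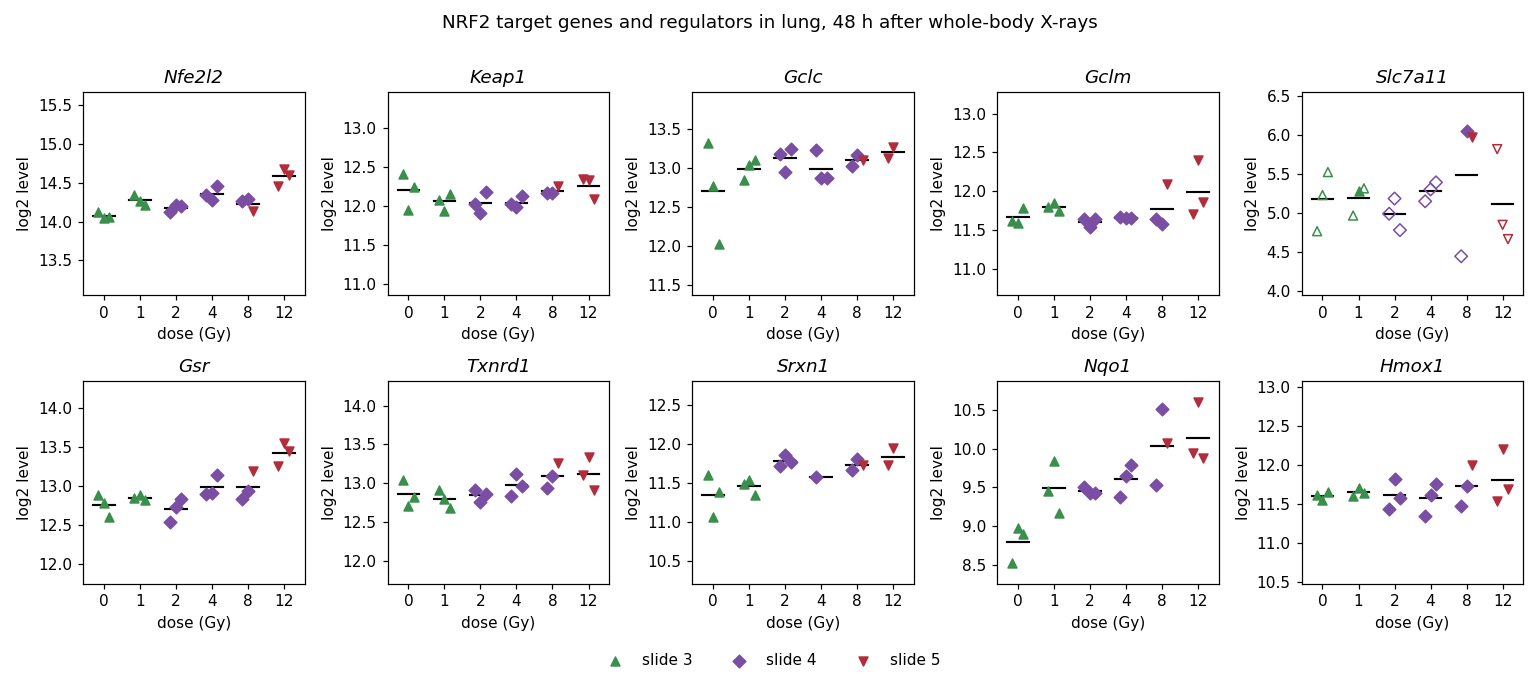
Levels of the 10 genes in lung, drawn as for liver, with dose in Gy on the x axis and the log2 level on the y axis. Nqo1 lies between 8.53 and 8.98 at 0 Gy and between 9.17 and 10.60 in the irradiated samples, and slide 5 holds every 12 Gy sample.

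Nfe2l2, the gene of the transcription factor itself, rose in liver at 4, 8 and 12 Gy. Its log2 level was 12.12, 12.28 and 12.51 in the 0 Gy livers, 12.92, 12.56 and 12.89 at 1 Gy, and 12.89, 12.78 and 12.79 at 2 Gy. It was 12.85, 12.93 and 12.97 at 4 Gy, 12.69, 13.12 and 12.97 at 8 Gy, and 13.04, 12.80 and 12.88 at 12 Gy. Every irradiated liver lay above the highest 0 Gy liver, and the 5 irradiated groups overlapped. A share of all probes was computed only for 12 Gy values wholly above those of 0 Gy. It was not computed for other separations of samples, here or for the genes below. The log2 change was 0.48 ± 0.14 (SE, n = 3 against 3) at 1 Gy, with an adjusted p of 0.436, 0.51 at 2 Gy (0.142), 0.61 at 4 Gy (0.0272), 0.62 at 8 Gy (0.0129) and 0.60 at 12 Gy (0.0166), with the same SE at each dose. As a slope over 12 Gy the liver value was 0.38 ± 0.15, and it did not pass (adjusted p = 0.134), whereas with log2(dose + 1) in place of dose it did (0.53, 0.0133). The 12 Gy call was lost without sample 1, 6 or 11 (adjusted p from 0.0642 to 0.078), the 8 Gy call without sample 1 (0.0581) or 15 (0.0564), and the 4 Gy call without sample 1, 4, 11, 14 or 24 (0.0682 to 0.114). With slide as a term no liver call of Nfe2l2 remained, the values at 4, 8 and 12 Gy being 0.66, 0.67 and 0.78 (adjusted p = 0.455, 0.261 and 0.268), and with slide as a random block the 4 Gy call was lost (0.61, 0.0636). On slide 1 alone the 1 Gy livers lay 0.48 above those of 0 Gy and samples 3 and 13 at 2 Gy 0.53 above them, without overlap.

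In lung Nfe2l2 rose at 12 Gy and along the dose. Its log2 level was 14.12, 14.04 and 14.06 at 0 Gy, from 14.13 to 14.45 over the 12 samples from 1 to 8 Gy, and 14.46, 14.68 and 14.60 at 12 Gy. The 12 Gy samples lay above all 15 others. The change at 12 Gy was 0.50 ± 0.12 (SE, adjusted p = 0.00697), or 0.45 (0.0235) without sample 16, and the slope over 12 Gy was 0.36 ± 0.11 (0.0153). The slope lost its call without sample 16 (0.30, adjusted p = 0.0639) or 26 (0.33, 0.0536), and without the 4 samples of slide 5 it was 0.27 (0.42). Within slide 5 the 12 Gy samples lay 0.45 above sample 25 at 8 Gy. With slide as a random block the 12 Gy change was 0.53 and its adjusted p was 0.0667.

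A further Nfe2l2 probe matches NR_132727, a non-coding transcript of the gene. By this probe none of the liver comparisons passed, the 12 Gy change in liver being 0.55 ± 0.25 (SE, adjusted p = 0.218), with 8.79 to 9.07 at 0 Gy and 9.22 to 9.89 at 12 Gy. In lung it rose at 12 Gy by 0.85 ± 0.24 (adjusted p = 0.0205), from 8.31 to 8.59 at 0 Gy to 8.93 to 9.82. Averaged over both probes, the liver change was 0.36 at 4 Gy (adjusted p = 0.245) and 0.34 at 8 Gy (0.199), so that these calls rest on the probe of the coding transcript.

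Keap1, whose product holds NRF2 in check, fell along the dose in liver. Its log2 level was 11.75, 11.70 and 11.68 at 0 Gy, from 11.49 to 12.01 at 1 and 2 Gy, and 11.33, 11.56 and 11.65 at 4 Gy. It was 11.42, 11.49 and 11.38 at 8 Gy, and 11.32, 11.34 and 11.51 at 12 Gy. The groups at 4, 8 and 12 Gy lay wholly below the 0 Gy group. The slope over 12 Gy was -0.39 ± 0.11 (SE, adjusted p = 0.0248), while the single doses did not pass, the change being -0.20 at 4 Gy (adjusted p = 0.478), -0.28 at 8 Gy (0.204) and -0.32 at 12 Gy (0.172). Without sample 6 the slope was -0.37 (adjusted p = 0.0718). Within slide 2 the 8 Gy livers differed from sample 23 at 2 Gy by -0.06, and with slide as a term the slope was -0.17 (adjusted p = 0.759). In lung the Keap1 level ran from 11.95 to 12.41 at 0 Gy and from 12.09 to 12.34 at 12 Gy, with a slope of 0.15 ± 0.11 (adjusted p = 0.329). That slope was 0.40 with the processed signal scaled to the 75th percentile (0.0206) and 0.35 with the authors' series values (0.0228). In liver the series values gave -0.43 at 8 Gy (0.0267).

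Gclc and Gclm encode the catalytic and modifier subunits of glutamate-cysteine ligase, which catalyses the limiting step of glutathione synthesis. Neither passed against 0 Gy or on the slope in the main normalization. Gclc in liver had log2 levels of 12.22, 12.50 and 12.70 at 0 Gy and 13.34, 12.79 and 13.36 at 12 Gy, a change of 0.69 ± 0.27 (SE, adjusted p = 0.148) without overlap. The 0 Gy lungs spread widely, with Gclc at 13.32, 12.77 and 12.03 at 0 Gy, against 13.13 and 13.28 in the 12 Gy samples 6 and 26, the spot of sample 16 having been set aside as an outlier. That lung change was 0.50 ± 0.27 (n = 2 against 3, adjusted p = 0.205). Gclm in liver ran from 13.51 to 13.62 at 0 Gy and from 13.32 to 13.65 at 12 Gy, a change of -0.12 ± 0.18 (adjusted p = 0.793). In lung it ran from 11.60 to 11.78 and from 11.71 to 12.40, a change of 0.32 ± 0.17 (adjusted p = 0.202), with sample 16 the highest. With the processed signal scaled to the 75th percentile Gclm passed in lung at 12 Gy (0.48, adjusted p = 0.0422) and on the slope (0.48, 0.00683), as it did with the authors' series values (0.42, 0.033, and 0.43, 0.00479). With the series values Gclc passed in lung at 12 Gy (0.79, 0.0224) and on the slope (0.60, 0.0181), and without sample 1 it passed at 12 Gy (0.81, 0.0231).

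Slc7a11, the cystine importer that feeds glutathione synthesis, was close to background. By its brightest probe it was well above background on none of the 18 liver arrays and on 3 of the 18 lung arrays, namely sample 12 at 1 Gy (5.29) and samples 15 and 25 at 8 Gy (6.06 and 5.97). Its further probe was well above background on liver sample 11 at 0 Gy (4.82) and lung sample 6 at 12 Gy (6.56) and on no other array. No fold change is therefore given.

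Gsr, the reductase that regenerates glutathione from its oxidised form, rose in lung. Its log2 level there was 12.88, 12.78 and 12.61 at 0 Gy, 12.84, 12.89 and 12.82 at 1 Gy, and 12.54, 12.72 and 12.83 at 2 Gy. It was 12.90, 12.91 and 13.13 at 4 Gy, 12.83, 12.93 and 13.18 at 8 Gy, and 13.26, 13.55 and 13.44 at 12 Gy. The 3 samples at 12 Gy were the highest of the 18. The change at 12 Gy was 0.66 ± 0.14 (SE, adjusted p = 0.00484), a fold of 1.58, and the slope over 12 Gy was 0.61 ± 0.12 (0.00113). Both calls held with any 1 sample left out. Without sample 16, the highest of the 18, the change at 12 Gy was 0.60 (adjusted p = 0.0202) and the slope 0.53 (0.00704). Within slide 5 the 12 Gy samples lay 0.23 above sample 25, and within slide 4 the 4 Gy samples lay 0.29 above those of 2 Gy. Without slide 5 the slope was 0.25 (adjusted p = 0.547), and with slide as a random block the 12 Gy change was 0.62 (0.0785). In liver Gsr was 12.49, 12.40 and 12.44 at 0 Gy and lay above these values in all 15 irradiated samples. The share of all probes with this separation was not computed. The liver changes ran from 0.17 at 12 Gy to 0.43 at 8 Gy, and no dose passed (lowest adjusted p = 0.0959, at 8 Gy).

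Txnrd1, thioredoxin reductase, and Srxn1, sulfiredoxin, which repairs overoxidised peroxiredoxins, serve the thioredoxin arm. Txnrd1 rose in lung along the dose. Its lung levels were 13.05, 12.71 and 12.82 at 0 Gy, from 12.69 to 13.12 at 1 to 4 Gy, 12.95, 13.10 and 13.26 at 8 Gy, and 13.10, 13.34 and 12.91 at 12 Gy. The 0 and 12 Gy groups overlapped. The slope over 12 Gy was 0.33 ± 0.11 (SE, adjusted p = 0.0345) and the change at 12 Gy 0.26 ± 0.15 (0.232), which was 0.49 with the 75th percentile scaling (0.0237) and 0.43 with the series values (0.0205). The slope lost its call without sample 6, 11, 12, 16, 22 or 25 (adjusted p from 0.0523 to 0.126, the last without sample 16) and without slide 5 (0.33, 0.364). Of 11 other settings, that without slide 5 included, 5 kept the call on the slope and 6 lost it, with slopes from 0.14 to 0.51. It was also lost with log2(dose + 1), without a filter, with the mean of both probes, and with slide as a term or as a random block. The dimmer Txnrd1 probe gave a slope of 0.16 ± 0.18 (0.521). In liver Txnrd1 ran from 12.70 to 13.06 at 0 Gy and from 13.02 to 13.15 at 12 Gy (change 0.21 ± 0.15, adjusted p = 0.468), and the spot of sample 2 at 1 Gy had been set aside. Srxn1 in liver did not pass at any dose, with its largest change of 0.35 ± 0.18 at 2 Gy (adjusted p = 0.472), where levels of 12.13, 11.71 and 11.99 stood against 11.48, 11.70 and 11.61 at 0 Gy. In lung Srxn1 was 11.60, 11.07 and 11.38 at 0 Gy and 11.73 and 11.95 in the 12 Gy samples 6 and 26, a change of 0.49 ± 0.17 (n = 2 against 3, adjusted p = 0.0611). It passed with 5 of the alternatives to the processing, namely both tissues fitted together, a normexp offset of 50, a stricter filter (well above background on every array of a dose group), the 75th percentile scaling and the series values, with changes from 0.48 to 0.65 (adjusted p from 0.0119 to 0.0425), and without sample 1 (0.61, 0.0262). The Srxn1 slope in lung passed with 5 alternatives and without sample 13 (0.38 to 0.51, adjusted p from 0.00798 to 0.045). The spots of lung samples 14, 24 and 16 had been set aside for Srxn1, which left sample 4 alone at 4 Gy (11.58).

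Nqo1, which reduces quinones without leaving semiquinone radicals, changed most. In liver its log2 level was 9.31, 9.82 and 9.30 at 0 Gy, 10.09, 9.95 and 10.19 at 1 Gy, and 10.94, 10.51 and 10.22 at 2 Gy. It was 10.70, 10.35 and 10.10 at 4 Gy, 10.61, 10.54 and 10.22 at 8 Gy, and 10.84, 10.81 and 10.41 at 12 Gy. All 15 irradiated livers lay above the highest control, and the groups from 2 to 12 Gy overlapped. The log2 change was 0.60 at 1 Gy (adjusted p = 0.595), 1.08 at 2 Gy (0.0388), 0.91 at 4 Gy (0.0313), 0.98 at 8 Gy (0.0108) and 1.21 at 12 Gy (0.00298), each ± 0.21 (SE), so that Nqo1 stood 2.31-fold above control at 12 Gy. The calls at 8 and 12 Gy held with any 1 sample left out. The call at 4 Gy was lost without sample 1, 4, 14 or 21 (adjusted p from 0.085 to 0.134), and that at 2 Gy without sample 1, 2, 3, 6, 12, 13, 14, 15, 16 or 21 (0.0505 to 0.137). Within slide 1 the 1 Gy livers lay 0.60 and samples 3 and 13 at 2 Gy 1.25 above the 0 Gy livers, without overlap. With slide as a term Nqo1 kept its call at 2 Gy (1.25, adjusted p = 0.0407), and the values at 4, 8 and 12 Gy were 1.41, 1.48 and 1.87 (0.201, 0.0936 and 0.0592).

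The slope of Nqo1 in liver over 12 Gy was 0.81 ± 0.24 (SE, adjusted p = 0.0396). It lost its call without sample 1, 5, 6, 11, 12, 15, 16 or 21 (0.0573 to 0.101). With Nqo1 up and Keap1 down, 1 of the 9 members rose and 1 fell on the liver slope, where 4.04% of probes rose and 5.47% fell. The median slope was 0.15 over the members and 0.004 over all probes.

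In lung the log2 level of Nqo1 was 8.53, 8.98 and 8.90 at 0 Gy, 9.46, 9.84 and 9.17 at 1 Gy, and 9.51, 9.43 and 9.43 at 2 Gy. It was 9.38, 9.64 and 9.79 at 4 Gy, 9.53, 10.51 and 10.07 at 8 Gy, and 9.94, 10.60 and 9.88 at 12 Gy. All 15 irradiated lungs lay above the highest control. The change was 0.69 at 1 Gy (adjusted p = 0.731), 0.65 at 2 Gy (0.5), 0.80 at 4 Gy (0.138), 1.23 at 8 Gy (0.00887) and 1.33 at 12 Gy (0.00234), each ± 0.25 (SE), a fold of 2.52 at 12 Gy. The slope over 12 Gy was 1.10 ± 0.23 (0.00134), and these 3 calls held with any 1 sample left out. Without sample 16, the highest at 12 Gy, the 12 Gy change was 1.10 (0.0132) and the slope 0.99 (0.00916). Without slide 5 the slope was 1.50 (adjusted p = 0.0456). Within slide 3 the 1 Gy lungs lay 0.69 above those of 0 Gy without overlap, within slide 4 samples 5 and 15 at 8 Gy lay 0.57 above the 2 Gy lungs without overlap, and within slide 5 the 12 Gy lungs lay 0.07 above sample 25 with overlap. With slide as a term the slope was 1.13 (adjusted p = 0.723), and with slide as a random block the 8 Gy change was 1.24 (0.0883) while the 12 Gy change kept its call (1.33, 0.045).

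Along the lung dose 4 members rose (Nqo1, Gsr, Nfe2l2 and Txnrd1) and none fell, where 19.7% of all tested probes rose. The share of probes that fell along the lung dose is not given, so the absence of falls is not read as a result. The median slope was 0.33 over the 10 members and 0.08 over all probes.

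Hmox1, heme oxygenase, which splits heme into biliverdin, iron and carbon monoxide, passed in liver at 8 Gy and at no other dose. Its log2 level was 10.66, 10.81 and 11.00 at 0 Gy, 11.08, 11.22 and 11.50 at 8 Gy, and 10.84, 10.83 and 11.00 at 12 Gy. The 8 Gy group lay above the controls and the 12 Gy group overlapped them. The change was 0.44 ± 0.13 at 8 Gy (SE, adjusted p = 0.047) and 0.07 ± 0.13 at 12 Gy (0.846). The 8 Gy call held without sample 5, 13, 21 or 23 and was lost without any 1 of the other 14 (adjusted p from 0.0503 to 0.169). Over 8 other settings the 8 Gy call was kept in 2 and lost in 6, with changes from 0.27 to 0.64. It was lost, among others, with the authors' series values, without a filter, with both tissues fitted together and with slide as a random block. Between 8 and 12 Gy no member passed, so that a difference between these doses was not shown. In lung Hmox1 ran from 11.55 to 11.66 at 0 Gy and from 11.54 to 12.20 at 12 Gy, a change of 0.20 ± 0.19 (adjusted p = 0.471).

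**Figure D3:**
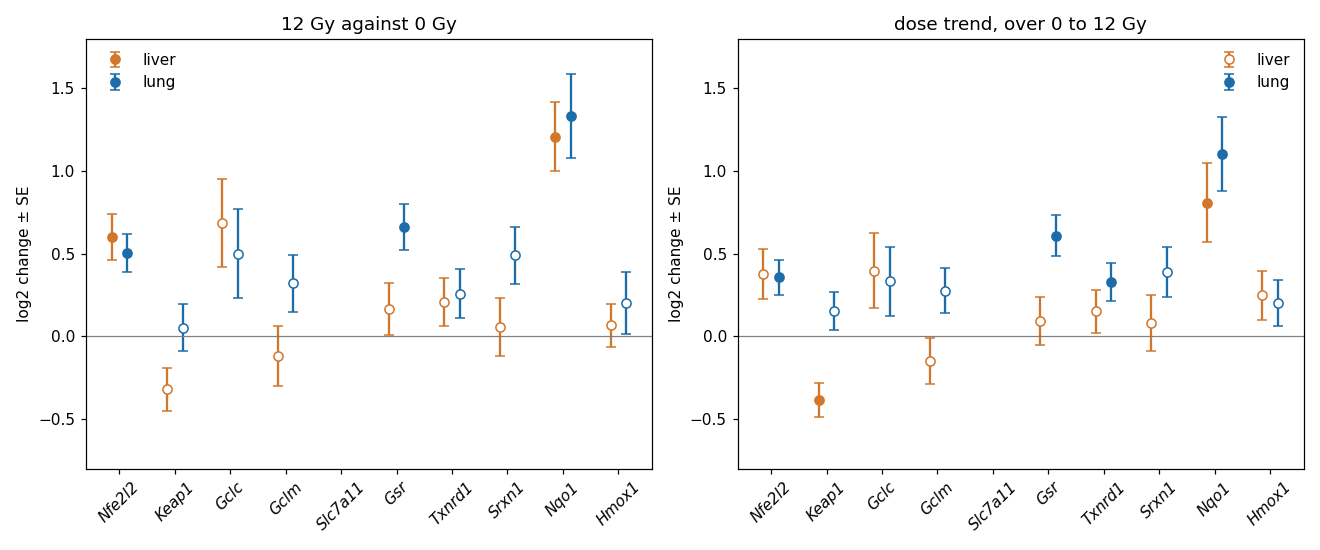
Log2 change of each member at 12 Gy against 0 Gy (left) and as a slope over 12 Gy (right), in liver and in lung, with bars of 1 SE on the y axis and genes on the x axis. Filled points passed at an adjusted p below 0.05 and hollow points did not. Nqo1 stands highest in both tissues, at 1.21 in liver and 1.33 in lung at 12 Gy, and Slc7a11 is left blank because it was near background.

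No member passed between neighbouring doses (2 against 1, 4 against 2, 8 against 4 and 12 against 8 Gy) in either tissue by limma, where 0.00521% of probes in liver and 0.246% in lung passed in at least 1 of the 4 pairs. At an unadjusted p below 0.05 the members passing numbered 2, 1, 1 and 1 of 9 in liver and 0, 0, 0 and 2 of 10 in lung. The probes passing numbered 3995, 4130, 4041 and 3752 of 38362 in liver. In lung they numbered 2757, 2257, 2099 and 8650 of the 43976 or 43979 tested. A difference between neighbouring doses was therefore not shown for any member in the main fit, and irradiated doses further apart were not tested against each other.

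The slopes of Gsr and Keap1 differed between the tissues. The difference, lung minus liver over 12 Gy with both tissues normalized together, was 0.65 ± 0.19 (SE) for Gsr (adjusted p = 0.0154) and 0.52 ± 0.15 for Keap1 (0.0165). These were 2 of 10 members, where 11.0% of the 47376 probes tested had a higher slope in lung. The median difference was 0.31 over the members and 0.08 over all probes. For Nqo1 the difference was 0.44 ± 0.34 (0.403) and for Nfe2l2 0.03 ± 0.17 (0.934), so that a difference was not shown for either. The Gsr difference was lost without sample 16 (0.47, 0.124) or 26 (0.56, 0.0713) of both tissues, and the Keap1 difference without sample 6 (0.47, 0.0743) or 16 (0.48, 0.0642). With slide as a term they were 0.10 (0.994) and 0.34 (0.954).

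Before irradiation 4 members were lower in lung than in liver in the main normalization, and Nfe2l2 was higher by its brightest probe. With both tissues normalized together, Gclm had log2 levels from 13.66 to 13.76 in liver and from 11.13 to 11.32 in lung, a difference of -2.51 ± 0.18 (SE, adjusted p = 5.56e-13). Nqo1 ran from 9.88 to 10.37 in liver and from 7.81 to 8.28 in lung (-1.95 ± 0.24, 7.1e-08). Srxn1 ran from 11.88 to 12.08 and from 10.54 to 11.12 (-1.14 ± 0.16, 1.18e-06). Txnrd1 ran from 12.95 to 13.26 and from 12.36 to 12.77 (-0.58 ± 0.15, 0.00176). None of these 4 pairs of groups overlapped, and those of Nfe2l2 did not either. Of the members that did not pass, Keap1 (12.06 to 12.12 in liver, 11.507 to 12.028 in lung) and Gsr (12.693 to 12.765 and 12.243 to 12.562) also did not overlap. The share of all probes without overlap between the tissues was not computed. Nfe2l2 ran from 12.46 to 12.79 in liver and from 13.93 to 14.02 in lung (1.35 ± 0.12, 3.65e-11). The probe of the non-coding Nfe2l2 transcript went the other way, from 9.41 to 9.67 in liver and from 7.58 to 7.87 in lung (-1.79 ± 0.24, 3.06e-07). By the brightest probes 1 of 10 members was higher in lung and 4 were lower, where 26.0% of probes were higher and 26.8% lower. The median difference was -0.35 over the members and -0.05 over all probes. With the 75th percentile scaling Gclc (-1.17), Gsr (-1.08), Keap1 (-0.94) and Hmox1 (-0.56) also passed as lower in lung. They did so with the series values too (-1.29, -1.19, -1.055 and -0.67). The median over all probes was -0.29 and -0.32 under these scalings, so which members differ between the tissues depends on the normalization.

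**Figure D4:**
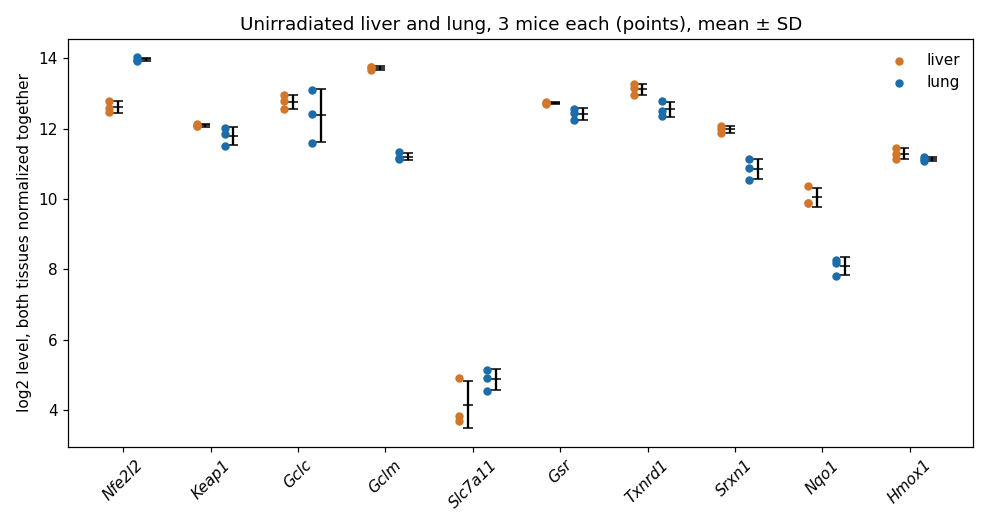
Levels of the 10 genes in unirradiated liver and lung, with both tissues normalized together. The y axis is the log2 level and the x axis the gene, points are the 3 samples of each tissue, and bars are the mean with its SD. Gclm lies near 13.7 in liver and 11.2 in lung, and Slc7a11 was not well above background by this probe in any of these 6 samples.

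Correlations among the members are given as a description, since the arrays share doses and slides, and were not tested. Leaving out Slc7a11, 17 of 36 pairs had a Pearson correlation above 0.5 over the 18 lung arrays, with a median of 0.46 and a range from -0.12 to 0.83. In liver 5 of 36 pairs did, with a median of 0.22 and a range from -0.38 to 0.70. The highest pair was Gsr with Nfe2l2 in lung (0.83) and Nqo1 with Nfe2l2 in liver (0.70).

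Other genes of the pathway behaved unevenly. Of 60 further genes with a probe, 6 rose and 3 fell in liver at 12 Gy, where 2.91% of probes rose and 4.10% fell, and their median change was 0.04. In lung 14 rose and 2 fell, where 13.5% rose and 7.81% fell, with a median of 0.18. Ephx1, microsomal epoxide hydrolase, had the largest rise in both tissues. In liver it went from 15.20, 15.47 and 15.45 at 0 Gy to 16.44, 16.38 and 16.51 at 12 Gy (1.07 ± 0.17, SE, adjusted p = 0.0015). In lung it went from 15.34, 15.00 and 14.91 to 16.72, 16.55 and 16.44 (1.49 ± 0.15, 1.1e-05). The groups did not overlap in either tissue.

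By role, of 13 other detoxification and antioxidant genes, 3 rose and 2 fell in liver (median 0.32) and 6 rose and 1 fell in lung (median 0.46). In liver Abcc3 and Abcc2, efflux pumps for conjugates, rose by 0.78 (adjusted p = 0.00421) and 0.65 (0.0251), and Sod3, the extracellular superoxide dismutase, fell by 0.80 (0.00414). In lung Sod2, the mitochondrial superoxide dismutase, fell by 1.12 (0.0339). Of 17 glutathione enzymes and carriers 2 rose in liver (Glrx, glutaredoxin, by 0.67, and Mgst3, a microsomal glutathione transferase, by 0.66, with adjusted p of 0.0137 and 0.047) and 3 in lung, among them the glutathione transferase Gsta3 (0.84, 0.000745). None of this list fell in either tissue.

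Of 8 regulators and partners 1 rose in liver and 2 in lung, among the latter Maff, a small MAF protein gene (0.81, adjusted p = 0.0111). Of 10 thioredoxin and peroxiredoxin genes none passed in liver and 2 rose in lung. Of 6 genes of NADPH supply none rose and 1 fell in each tissue, in lung Idh1, cytosolic isocitrate dehydrogenase (-1.30 ± 0.36, 0.0201). Of 6 genes of heme and iron handling none passed in liver and 1 rose in lung, Slc40a1, the iron exporter ferroportin (1.04, 0.00454).

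The genes that ran most like each member along the 18 arrays of a tissue are given as a description only, for members that passed on the slope. In liver, over 17273 genes, these were Zfp354a (Pearson r = 0.892), Hipk3 (0.859) and Cyp2d22 (0.854) for Nqo1, and Dpp3 (0.901), Cldn7 (0.892) and Ybx1 (0.883) for Keap1. In lung, over 18186 genes, Nqo1 ran most like 2900041M22Rik (0.92), Tpd52l1 (0.916) and D730003K21Rik (0.914). Gsr ran most like Lonrf3 (0.961), Ift81 (0.953) and Nucks1 (0.95). Nfe2l2 ran most like Fut10 (0.926), Zfp184 (0.905) and Olfr1383 (0.879). Txnrd1 ran most like Rbm15b (0.931), Bud13 (0.911) and Fzd4 (0.907).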

How the data were processed

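Single-channel Agilent mRNA arrays of liver and lung (18 each) were read from the scanner files. Per the file headers the authors extracted spot intensities with Agilent Feature Extraction 11.5.1.1, and the deposited files give median spot and background intensity, not the mean. From these, normexp background correction (offset 0), removal of control spots and of outlier spots (set to missing) and quantile normalization per tissue gave log2 levels in limma 3.58.1 (R 4.3.3). Precision is limited by the number of arrays. The deposited series values of the authors, a ratio to each array's 75th percentile as far as their match to the processed signals showed (their centring and scale were not stated), were taken to log2 as an alternative only.

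Spots of a probe were averaged, and probes were named through RefSeq accessions (34566 named, 9009 Ensembl-named probes not mapped). Where a gene had several probes the brightest counted, and a further probe was named where it differed in direction or in passing. Each tissue's tests covered the probes flagged well above background on 1 or more of its arrays, with lmFit and eBayes and Benjamini-Hochberg adjustment over all of them (adjusted p below 0.05): each dose against 0 Gy, a linear dose slope given over 12 Gy, neighbouring doses, and, with all 36 arrays normalized together, lung against liver at 0 Gy and the difference of the slopes. The levels of different probes cannot be compared. P-values of the dose comparisons measure a difference against the spread between mice of 1 experiment. Where the doses lay on different slides that difference holds slide as well. For the slopes the spread also holds departures from a straight line. The fit was run on simulated data with independent noise and no slide effect, and its outcome is not reported here. Such data cannot show what the overlap of slide and dose does to the fit. Further pathway genes are those with the largest changes at 12 Gy among genes that passed (up to 6 per tissue), and likeness is the Pearson correlation over a tissue's arrays (3 genes per member that passed on the slope). Members and lists were chosen with earlier results of these data known. The miRNA arrays were not used here.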

Additional observations from a re-analysis of the deposited data

Results flagged for a closer look

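The dose slope differed between the tissues for 2 members, as the difference itself was tested. For Keap1 the slope in lung minus that in liver was 0.52 on the log2 scale over 12 Gy (limma, adjusted p = 0.0165), with -0.39 in liver and 0.15 in lung. For Gsr it was 0.65 (adjusted p = 0.0154), with 0.10 in liver and 0.61 in lung. The slopes of the single tissues come from each tissue normalized alone, and the tested differences from both normalized together. The former therefore do not subtract exactly to the latter. Every 12 Gy lung sample lay on slide 5, and both differences lost their call when slide entered the fit.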

How the results depend on the processing

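Of the member calls above, each recomputed under the alternatives that could be run for it, 549 values kept direction and side of the threshold, 105 kept direction and no longer passed, and 1 turned: averaged over both its probes, Nfe2l2 at 0 Gy was -0.22 in lung against liver (adjusted p = 0.224), and by the authors' series values it was 0.25 (0.0547). These values include 18 fits per call with 1 sample left out. Where 2 groups were compared, most samples left out were in neither, so that the change itself could not move. Over the other settings the 8 Gy call of Hmox1 in liver was lost in 6 of 8. The lung slope of Txnrd1 was lost in 6 of 11 and the 4 Gy call of Nqo1 in liver in 4 of 8. The 12 Gy call of Nqo1 in lung was kept in all 7. With all scalings the median of all probes at 0 Gy, lung minus liver, was -0.05 in the main normalization, -0.29 with the processed signal scaled to the 75th percentile and -0.32 with the series values. Under these scalings 9 and 8 members passed between the unirradiated tissues instead of 5, and 3 passed with a mean over probes. The lung counts were 6 and 7 members at 1 dose or more instead of 3, and 7 and 8 on the slope instead of 4. The series values gave 4 members on the slope difference instead of 2. The share of all probes passing under each alternative was not computed, so these member counts cannot be set against it. With an added fold threshold (absolute log2 above 1) liver, lung and the lung slope kept 1 member each, and the liver slope and the slope difference 0. Without a filter the liver slope kept 0. With log2(dose + 1) the slope difference kept 0. With both tissues fitted together 1 member, Gsr, passed between 12 and 8 Gy in lung.

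With slide as a term liver kept 1 member instead of 3, and the liver slope, the lung slope and the slope difference 0 each. The lung doses from 2 Gy against 0 Gy could not be fitted with it. Chosen after seeing the data, slide as a random block left 1 member in lung and 0 on the liver slope, and leaving out slide 5 left Nqo1 alone on the lung slope. It also left 1 member in lung, where the 12 Gy comparison that gave the calls of Nfe2l2 and Gsr could no longer be made. With 1 sample left out at a time (both tissues for the tissue comparisons), the counts ran from 1 to 3 in liver, 3 to 5 in lung, 0 to 2 on the liver slope, 2 to 5 on the lung slope, 0 to 2 on the slope difference, 5 to 8 at 0 Gy, and 0 to 1 between neighbouring lung doses. Liver fell to 1 without sample 1, the liver slope to 0 without sample 6, and the lung slope to 2 and the slope difference to 0 without sample 16.

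Liver and lung share sample numbers, and the labels do not say that a number is 1 animal. Deviations of same-numbered samples correlated above 0.1 in 3 of 18 pairs (from -0.14 to 0.25), and 8 of 18 correlated best with their own number. With the replicate block the counts stayed at 2 for the slope difference (Gsr 0.65, adjusted p = 0.0495, and Keap1 0.52, 0.0393) and at 5 for the unirradiated tissues. With 3 mice per group and levels read against array background, small changes and Slc7a11 were not resolved.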
